A study of Mus musculus with 32 samples.

Results

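Lyve1 encodes a surface receptor for the matrix polysaccharide hyaluronan, and 2 kinds of cells are known for it. Endothelial cells of lymphatic vessels carry it, and so does a class of tissue-resident macrophages that lie along blood vessels and often also carry the scavenger receptor CD163 and the folate receptor FOLR2. The transcript of Lyve1 in a piece of tumour can therefore come from either source. The 8 genes described here are Lyve1, 3 genes of resident macrophages (Cd163, Folr2 and F13a1) and 4 genes known from lymphatic vessels (Prox1, Flt4, Pdpn and Reln). They were chosen by symbol from 55103 rows of a table of counts per gene. The set was selected on the measured level of Lyve1 after photon irradiation, which was low, so every value of that comparison is given below as a description without a test. The libraries of the carbon-ion arm are not part of that photon comparison. The members, lists and tests were, however, chosen with earlier results of these data known. Tests within groups and in the carbon-ion arm therefore cannot be taken as fully independent of the choice. All 8 genes passed the filter on low counts, which left 20474 genes.

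The 32 libraries were made from tissue of mouse tumours of KPC36, a mouse pancreatic cancer line, and each library is called a tumour here. They form 4 groups of 8: tumours irradiated with carbon ions, a beam of charged nuclei that deposits its energy densely, untreated controls of that arm, tumours irradiated with photons, and untreated controls of the photon arm. Collection was at days 4 and 7 after treatment for irradiated and control tumours alike, and which tumour belongs to which day is not known here. Genotype of the line, strain and age of the mice, site of the tumour and radiation dose are not given in the sources used here. The labels call the cells malignant, yet the pieces held stroma as well: epithelial keratins such as Krt8 and the macrophage gene Csf1r were both counted in every library. Library titles begin with D in 4 carbon-ion controls and 3 carbon-irradiated tumours, and with M in the other 25. Nothing in the labels states that libraries came from separate animals, so the spread given below is that between libraries. Library totals ranged from 13891900 to 71645900 counts, and the log2 total had a correlation of -0.054 with Lyve1 within groups.

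In background terms, PROX1 is the transcription factor that sets and keeps lymphatic identity. FLT4 is the receptor through which the growth factors VEGFC and VEGFD drive the growth of lymphatic vessels, and it is also made by some blood vessels. Podoplanin, the product of Pdpn, is a mucin-like surface protein of lymphatic endothelium that fibroblasts, some macrophages and some tumour cells make as well. Reelin, the product of Reln, is a secreted matrix protein of neurons that collecting lymphatic vessels also release. CD163 takes up complexes of haemoglobin and haptoglobin, FOLR2 binds folate, and F13a1 encodes the catalytic subunit of coagulation factor XIII, which macrophages make in tissue.

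The genes lie apart from each other in the genome (GRCm38, the assembly of mm10, with GENCODE annotation). Lyve1 is at chr7:110850607-110863239 on the minus strand and Cd163 at chr6:124304656-124330527 on the plus strand. Folr2 is at chr7:101839988-101857194, F13a1 at chr13:36867178-37050244, Prox1 at chr1:190118035-190170714, Pdpn at chr4:143267431-143299564 and Reln at chr5:21884454-22344702, all on the minus strand. Flt4 is at chr11:49609263-49652739 on the plus strand. Overlapping annotated genes number 2 for Folr2, 2 for F13a1, 2 for Prox1 and 7 for Reln. Whether the counting used strand is not given in the sources used here, so reads from these overlaps cannot be told apart from those of the named gene.

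RefSeq promoter windows (GRCm38.p6) matched 7 of the 8 genes. The 250 bases before the first listed start are printed for the 4 genes that went up and down with Lyve1 in the results below and, beside them, for Prox1 and Reln, which were correlated with each other. Each reads 5′ to 3′ on the strand of its gene, and capitals mark CG dinucleotides.
Cd163, chr6:124304401-124304650 (+): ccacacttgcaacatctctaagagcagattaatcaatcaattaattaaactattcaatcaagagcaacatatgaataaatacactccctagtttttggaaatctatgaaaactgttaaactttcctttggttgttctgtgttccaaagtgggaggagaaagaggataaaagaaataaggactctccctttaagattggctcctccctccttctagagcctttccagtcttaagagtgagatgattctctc
Folr2, chr7:101857191-101857440 (-): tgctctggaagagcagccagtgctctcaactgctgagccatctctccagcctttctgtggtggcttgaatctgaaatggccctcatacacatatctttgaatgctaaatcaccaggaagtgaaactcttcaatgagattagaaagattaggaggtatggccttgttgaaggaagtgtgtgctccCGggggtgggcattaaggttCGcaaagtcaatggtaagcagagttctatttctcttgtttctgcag
F13a1, chr13:37050245-37050494 (-): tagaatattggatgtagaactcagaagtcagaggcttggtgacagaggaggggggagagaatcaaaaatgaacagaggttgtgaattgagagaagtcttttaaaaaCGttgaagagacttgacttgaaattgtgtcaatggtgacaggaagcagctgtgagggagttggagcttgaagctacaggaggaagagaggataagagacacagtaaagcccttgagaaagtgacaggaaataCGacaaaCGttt
Pdpn, chr4:143299565-143299814 (-): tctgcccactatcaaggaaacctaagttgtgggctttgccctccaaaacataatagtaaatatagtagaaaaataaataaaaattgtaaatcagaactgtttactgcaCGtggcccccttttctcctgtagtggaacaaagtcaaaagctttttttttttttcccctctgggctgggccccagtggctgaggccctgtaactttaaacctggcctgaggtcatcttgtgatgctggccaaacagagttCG
Prox1, chr1:190170828-190171077 (-): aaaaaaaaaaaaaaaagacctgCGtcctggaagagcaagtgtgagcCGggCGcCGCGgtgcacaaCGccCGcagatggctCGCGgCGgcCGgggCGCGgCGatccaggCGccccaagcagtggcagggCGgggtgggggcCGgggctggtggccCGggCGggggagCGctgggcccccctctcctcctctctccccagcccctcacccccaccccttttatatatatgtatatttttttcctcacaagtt
Reln, chr5:22344706-22344955 (-): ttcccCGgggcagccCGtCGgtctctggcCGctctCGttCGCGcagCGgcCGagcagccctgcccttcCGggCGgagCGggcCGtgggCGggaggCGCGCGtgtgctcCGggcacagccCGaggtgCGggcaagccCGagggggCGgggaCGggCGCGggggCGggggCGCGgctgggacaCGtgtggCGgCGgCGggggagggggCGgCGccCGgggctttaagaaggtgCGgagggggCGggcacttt
The 4 printed windows of the genes that went with Lyve1 were below the median in G and C, though the second listed start of F13a1, at 54.4%, was not. Their GC content was 36.8% for Cd163, 46.4% for Folr2, 42.8% for F13a1 and 43.2% for Pdpn, below the median of 52.4% over 32851 windows, and they held 0, 2, 3 and 2 CG dinucleotides against a median of 6. The windows of Prox1 and Reln had a GC content of 64.8% and 80.0% with 20 and 37 CG dinucleotides. That of Flt4 had 68.4% with 16. These are descriptions of 7 windows, and no relation to expression was tested.

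Lyve1 differed widely between tumours of the same group. Levels are given as CPM, the count of a gene scaled by the library's total times its TMM factor (edgeR's correction for library composition), which does not correct for gene length. The lowest, median and highest of 8 tumours were 1.09, 5.48 and 21.8 CPM in the carbon-ion controls. They were 1.61, 2.75 and 21.05 in the carbon-irradiated tumours. In the photon controls they were 0.806, 10.3 and 30.2, and in the photon-irradiated tumours 0.669, 1.42 and 5.93. All 4 ranges overlap, and all 8 photon-irradiated tumours lie below the median of their controls. The standard deviation of log2 CPM within groups was 1.33, against a median of 0.354 over all genes tested, while counting alone gives 0.127 at its median count of 129.5. In bulk tissue fewer cells of a type and less RNA per cell cannot be told apart.

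The 3 macrophage genes spread in the same way. Cd163 ran from 2.93 to 28.02 CPM in the carbon-ion controls (median 11.4) and from 2.61 to 33.6 CPM after carbon ions (8.79). It ran from 4.63 to 44.4 CPM in the photon controls (19.9) and from 1.99 to 16.7 CPM after photons (5.69). Folr2 had medians of 5.04, 5.27, 8.25 and 2.88 CPM in these groups in the same order and ran from 0.849 to 19.7 over all of them. F13a1 had medians of 36.3, 26.8, 41.7 and 15.1 CPM and ran from 9.63 to 103. The groups overlap for each of these genes. Their standard deviations within groups were 1.19, 0.95 and 0.92 on the log2 scale.

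The lymphatic genes did not share 1 pattern. Prox1 was low throughout, with a lowest, median and highest of 0.362, 1.38 and 3.15 CPM in the carbon-ion controls, 0.229, 1.17 and 2.32 after carbon ions, 0.568, 1.002 and 3.24 in the photon controls and 0.206, 1.27 and 2.74 after photons. Reln had medians of 1.26, 0.785, 1.17 and 1.72 CPM in the same order and ran from 0 to 9.18. Both rest on few counts, with a median of 36 for Prox1 and 45.5 for Reln, where counting alone gives a standard deviation of 0.240 and 0.214 on the log2 scale. Their measured standard deviations within groups, 0.98 and 1.56, were larger than that. Flt4 was the steadiest of the 8 genes, with medians between 15.8 and 21.3 CPM, a range of 11.1 to 35.2 CPM and a standard deviation within groups of 0.32. Pdpn lay at medians of 16.8, 17.7, 28.6 and 14.8 CPM in the 4 groups, ran from 8.60 to 53.8 and had a standard deviation of 0.60.

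**Figure D1:**
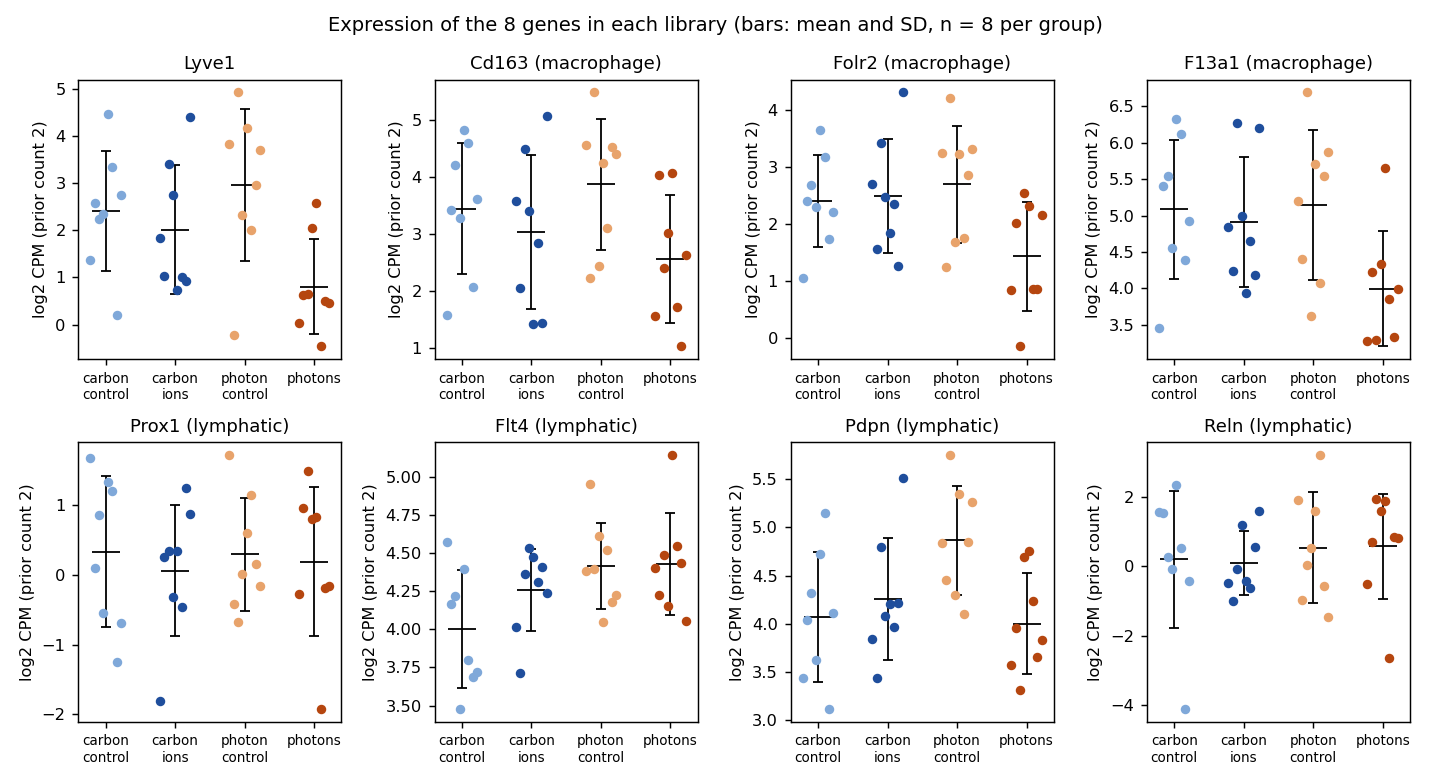
Log2 CPM (prior count 2) of each of the 8 genes in every library, by group, with 1 point per tumour, the mean as a horizontal mark and the SD as a bar (n = 8 per group). The groups overlap for every gene, Flt4 spans the narrowest range, and the photon-irradiated tumours sit lowest for Lyve1.

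Single tumours, picked after their values were seen, differed in which genes were high together. The tumour with the most Lyve1 of all 32, photon control 3 at 30.2 CPM, also had the most Cd163 (44.4 CPM), F13a1 (103 CPM) and Pdpn (53.8 CPM), while its Prox1, at 0.568 CPM, was the lowest of the photon controls. The reverse was seen in carbon-ion control 1, where Prox1 stood at 3.15 CPM, the highest of its group, and Cd163 (2.93 CPM), Folr2 (2.02 CPM) and F13a1 (10.9 CPM) were the lowest of theirs, with Lyve1 at 2.52 CPM. Other tumours had Prox1 and Reln on the side of Lyve1. Carbon-ion control 5 held the most Lyve1 (21.8 CPM) and Reln (5.04 CPM) of its group and the second most Prox1 (2.46 CPM). Carbon-ion control 7 was the lowest of its group for all 3, with 1.09 CPM of Lyve1, 0.362 CPM of Prox1 and 0 counts of Reln, and photon-irradiated tumour 6 was the lowest of its group with 0.669, 0.206 and 0.103 CPM. Carbon-irradiated tumour 8 was high for Lyve1 (21.05 CPM), Cd163 (33.6 CPM), Folr2 (19.7 CPM) and Pdpn (45.6 CPM) together.

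To ask which genes followed Lyve1 among tumours of the same group, the log2 CPM of Lyve1 was entered beside the group means in a count model of every gene (edgeR quasi-likelihood test, Benjamini-Hochberg over 20473 genes). The slope is the change in log2 expression of a gene per doubling of Lyve1. All 3 macrophage genes rose with Lyve1. The slope was 0.73 (SE 0.09, adjusted p = 2.74e-06) for Cd163, 0.59 (SE 0.06, adjusted p = 8.07e-07) for Folr2 and 0.54 (SE 0.07, adjusted p = 3.79e-06) for F13a1. Of the 4 lymphatic genes, Pdpn rose as well, with a slope of 0.34 (SE 0.05, adjusted p = 2.82e-05). The other 3 did not pass: Prox1 had a slope of 0.18 (SE 0.13, adjusted p = 0.501), Flt4 of -0.01 (SE 0.04, adjusted p = 0.919) and Reln of 0.43 (SE 0.19, adjusted p = 0.184). The 4 members that rose stand against a background of 1175 genes, 5.74% of those tested, that rose with Lyve1, and 466 genes, 2.28%, that fell (8.02% in either direction). The number of falling genes among the genes following Lyve1 moved with single tumours: it was 203 without carbon-irradiated tumour 8 (663 rose), 230 without photon control 2 (1266 rose) and 302 without photon control 3 (805 rose). It was 39 without both carbon-irradiated tumour 8 and photon control 2 (850 rose). Without the photon controls 722 of the 839 called genes rose and the rest fell. All 3 macrophage slopes passed in each of 15 other settings and with each library left out in turn. The call for Pdpn ended with the mean level of an adipocyte or a fibroblast gene list in the model (adjusted p = 0.0801 and 0.0537), and Reln passed with limma-trend (adjusted p = 0.0378), with a skeletal muscle list in the model (adjusted p = 0.0451) and without photon control 6 (adjusted p = 0.0252).

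Pairwise correlations of log2 CPM, centred within groups, were computed between Lyve1 and the other 7 genes over the 32 tumours. Pearson's r with Lyve1 was 0.845 for Cd163, 0.843 for Folr2, 0.811 for F13a1 and 0.780 for Pdpn, and Spearman's rho was 0.854, 0.828, 0.853 and 0.752. The raw permutation p was 1e-05 for each of these r, the smallest that 100000 permutations within groups can give, and 1.75e-05 after adjustment over the 7 pairs. Reln had an r of 0.510 and a rho of 0.454 (permutation p = 0.00379 and 0.0115, adjusted p = 0.00531 and 0.0160). Prox1 had an r of 0.313 and a rho of 0.274 (permutation p = 0.0876 and 0.142, adjusted p = 0.102 and 0.166), and Flt4 an r of -0.049 and a rho of -0.092 (permutation p = 0.795 and 0.628, adjusted p = 0.795 and 0.628). For Reln the correlation passed its test over 7 pairs where the slope did not pass over all genes. Among the 20473 other genes tested, the median r with Lyve1 was 0.0119 and the 5th and 95th percentiles were -0.421 and 0.523, and Cd163, Folr2 and F13a1 ranked at places 4, 5 and 19, Pdpn at 44, Reln at 1108, Prox1 at 3141 and Flt4 at 12058.

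Without the 2 tumours farthest from the Lyve1 median, photon control 2 and carbon-irradiated tumour 8, r was 0.819 for Cd163, 0.800 for Folr2, 0.836 for F13a1, 0.786 for Pdpn, 0.449 for Reln, 0.234 for Prox1 and 0.157 for Flt4. In the 25 libraries with M titles the values were 0.856, 0.839, 0.820, 0.787, 0.586, 0.422 and -0.068 in that order. In the 7 libraries with D titles they were 0.851, 0.904, 0.892, 0.895, 0.191, -0.134 and 0.181. The macrophage genes and Pdpn had a high correlation within both kinds of title, while those of Reln and Prox1 were lower in the D titles, a difference that was not tested. Prox1 passed at 0.05 with carbon-ion control 1 or photon control 3 left out (r = 0.376 and 0.399, permutation test, adjusted p = 0.0480 and 0.0358).

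**Figure D2:**
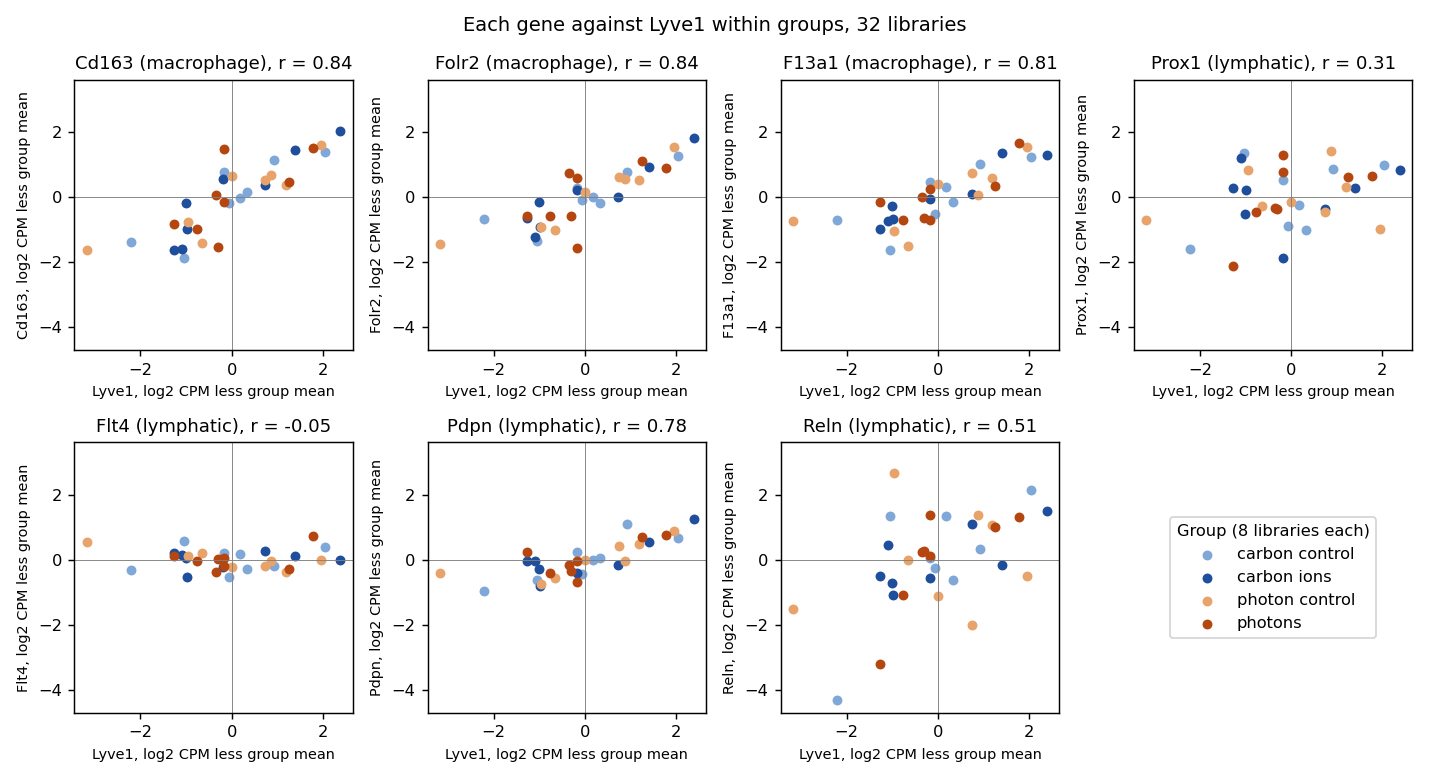
Log2 CPM of 7 genes (vertical) against that of Lyve1 (horizontal), both less the mean of the group, with 1 point per library, colour by group and Pearson's r in each title. Cd163, Folr2, F13a1 and Pdpn rise along a line with Lyve1, Flt4 stays level, and Prox1 and Reln scatter.

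Correlations with Lyve1 were also computed within single groups of 8. Cd163, Folr2, F13a1 and Pdpn each passed in 3 of the 4 groups (exact permutation of pairings, adjusted over 28 tests), with r between 0.624 and 0.945 in all groups. The group that missed was the photon-irradiated one for Cd163 (r = 0.669, exact adjusted p = 0.101), Folr2 (0.624, exact adjusted p = 0.144) and Pdpn (0.679, exact adjusted p = 0.0963), and the photon controls for F13a1 (0.750, exact adjusted p = 0.0565). Prox1 and Reln passed in none, and after photons r was 0.637 for Prox1 (exact adjusted p = 0.140) and 0.747 for Reln (exact adjusted p = 0.0635). Flt4 had a negative r of -0.807 in the photon controls (exact adjusted p = 0.0422), which did not pass by rank (rho -0.643, exact adjusted p = 0.180). There photon control 2 held the least Lyve1 (0.806 CPM) and the most Flt4 (30.9 CPM). Leaving that tumour out moved the r of Flt4 over all groups from -0.049 to 0.137. By Spearman's rho fewer passed: of the 28 tests only Cd163 and F13a1 in the carbon-irradiated tumours had an exact adjusted p under 0.05, at 0.0160 each. Differences between groups in these correlations were not tested.

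The macrophage and the lymphatic members were then set against each other in fits chosen after seeing the data. Each of the 3 macrophage genes was entered with each of the 4 lymphatic genes, in units of the SD within groups, as explanatory levels for all other genes, and the slopes of Lyve1 were read from these 12 fits. With Cd163 and Prox1 in the model, Lyve1 had a slope of 1.11 on Cd163 (edgeR, adjusted p = 4.13e-07) and of 0.22 on Prox1 (adjusted p = 0.987), and the difference of 0.89 passed (adjusted p = 0.0100). The macrophage slope passed in 10 of the 12 fits and the lymphatic slope in none of them. The slope on Reln was 0.38 (SE 0.12) beside Cd163, 0.44 (SE 0.11) beside Folr2 and 0.51 (SE 0.12) beside F13a1, with adjusted p over 20472 genes of 0.914, 0.607 and 0.403. The difference passed in all 6 fits with Prox1 or Flt4, with values between 0.75 and 1.05 (adjusted p between 0.000420 and 0.0277). It did not pass in the 3 fits with Reln (0.47 to 0.66, adjusted p between 0.0636 and 0.244) or in the 3 with Pdpn (0.14 to 0.43, adjusted p between 0.631 and 0.885). Beside Pdpn, whose r with the macrophage genes was 0.745 to 0.864, the macrophage slope passed for Cd163 alone (0.74, adjusted p = 0.0342).

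These calls stand against a background that differs by fit. For Cd163, Folr2 and F13a1 in that order, the share of all genes that rose with the macrophage gene was 5.88%, 6.53% and 6.43% beside Prox1, 6.39%, 7.27% and 6.8% beside Flt4, 3.09%, 0.982% and 3.12% beside Pdpn and 5.25%, 6.12% and 6.07% beside Reln. The share that rose with the lymphatic gene was 0.00977% for Prox1 in each of its fits, 1.36%, 1.48% and 1.16% for Flt4, 4.26%, 2.0% and 4.1% for Pdpn and 0.0147% for Reln in each. Few genes in the genome passed for Prox1 or Reln at all in these fits, so the lack of a call for Lyve1 on them is no more than the background gives. The macrophage slope lay above the lymphatic slope for 1.23%, 1.79% and 1.42% of genes with Prox1, 3.56%, 4.65% and 4.44% with Flt4, 5.5%, 0.122% and 6.18% with Pdpn and 0.562%, 1.33% and 0.996% with Reln.

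The other 21 pairs, also examined after seeing the data, fell into 2 sets. Cd163, Folr2 and F13a1 had an r of 0.890 to 0.906 with each other, and Pdpn had 0.745 with Cd163, 0.825 with Folr2 and 0.864 with F13a1. The rho of these 6 pairs ran from 0.736 to 0.922. Prox1 had an r of 0.742 and a rho of 0.777 with Reln. For each of these 7 pairs the permutation test gave p = 1e-05 (3e-05 when adjusted over the 21 pairs). Their r stayed between 0.685 and 0.897 without the 2 tumours farthest from the median of the pair's first gene. None of the other 14 pairs passed. Among those, Prox1 had an r of 0.281 with Flt4 (rho 0.278, permutation p = 0.150, adjusted p = 0.315) and of 0.206 with Pdpn (rho 0.180, permutation p = 0.286, adjusted p = 0.461). As a set, the 4 lymphatic genes did not vary together: Pdpn went with the macrophage genes, Reln with Prox1, and Flt4 passed with none of the other 7 genes.

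**Figure D3:**
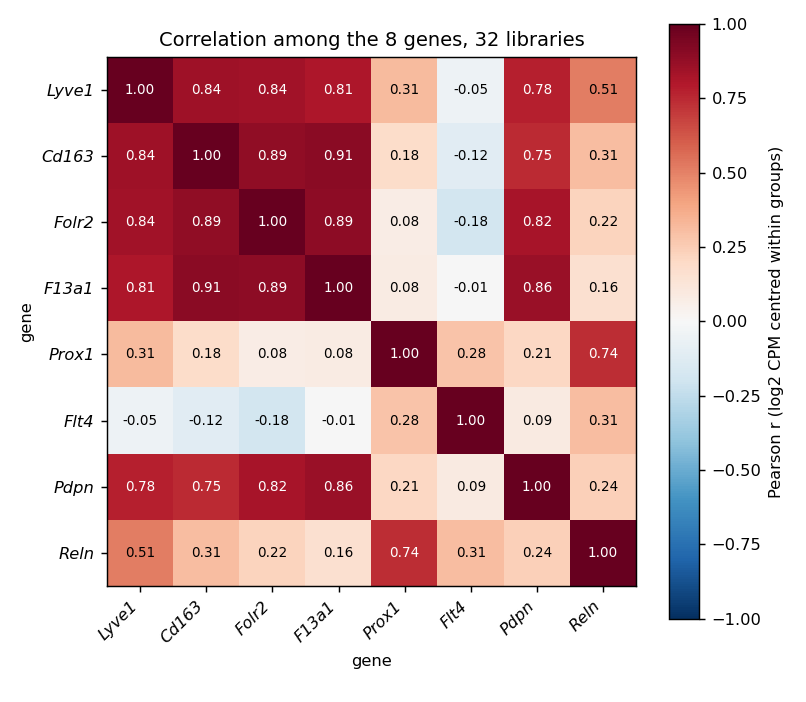
Pearson's r of log2 CPM centred within groups for each pair of the 8 genes over 32 libraries, with colour from -1 to 1. Lyve1, Cd163, Folr2, F13a1 and Pdpn form a block with r of 0.745 or more, and Prox1 pairs with Reln at 0.742.

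Wider lists of marker genes, chosen with earlier results of these data known, showed where the members stand. Of 16 tested resident macrophage genes outside the members, 13 rose with Lyve1, none fell, and the median r was 0.738. The highest were Cbr2 (r = 0.848), a carbonyl reductase, Mrc1 (0.826), the mannose receptor CD206, and Cd209f (0.803), a C-type lectin. Selenop, the plasma selenium carrier that many cells make, was the lowest at -0.419 and did not pass. Of 12 genes that all macrophages share, 6 rose and the median r was 0.461, with Itgam (0.744) and Cd68 (0.707) highest and the endotoxin co-receptor Cd14 lowest at -0.413. With upper-quartile scaling 4 of these 12 rose and 1 fell. When a treatment group was left out 2 to 4 rose, and 1 fell without the photon-irradiated tumours.

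The lymphatic list gave fewer calls. Of its 13 genes outside the members, 3 rose with Lyve1, against 5.74% of all genes tested, and the median r was 0.273. Those 3 were Vegfd (r = 0.751, slope 0.44), which encodes a ligand of FLT4 and is made by fibroblasts and other stromal cells, Nrp2 (0.562), a co-receptor of FLT4, and the transcription factor Gata2 (0.512). Tbx1 had the lowest r, 0.128. The mean log2 level of the whole lymphatic list had a higher r with Lyve1, 0.571, than its median gene. The means of other lists had 0.829 (other resident macrophage genes), 0.679 (adipocyte), 0.626 (fibroblast), 0.536 (blood endothelium) and 0.530 (genes common to macrophages). Of the 13 genes, 2 singled out after their values were seen had the highest r with Prox1: the chemokine gene Ccl21a had an r of 0.867 with Prox1 and 0.273 with Lyve1, and Mmrn1, which encodes a multimerin of endothelial cells, had 0.852 and 0.358. The median r of the 13 genes with Prox1 was 0.269, and Foxc2 (0.265), Nts (0.158), Gata2 (0.143) and Fxyd6 (0.137) were low. Neither Ccl21a nor Mmrn1 passed for Lyve1 (adjusted p = 0.696 and 0.261, edgeR). Ccl21a has near-identical copies in the mouse genome, so its counts are uncertain. The counts of both were low, with medians of 30.5 and 35.5, and the correlations with Prox1 are descriptions over 32 libraries that share depth and scaling.

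Other stromal lists moved with Lyve1 too. In the adipocyte list 5 of 7 tested genes rose (median r 0.613), with Pck1 (0.706), Fabp4 (0.678) and Lep (0.661) highest and Lipe (0.359) lowest. Its summed level ran from 18.8 to 180 CPM in the carbon-ion controls, 22.4 to 34.5 after carbon ions, 19.4 to 54.4 in the photon controls and 19.2 to 36.1 after photons. Several of its defining genes had no counts in part of the tumours: Adipoq in 4, Plin1 in 8, Pck1 in 12 and Lep in 16. In the fibroblast list 6 of 10 genes rose (median r 0.510), led by Col3a1 (0.673), Dcn (0.578) and Pdgfra (0.578), with Lum lowest at 0.338. Its sum ran from 5523 to 14771 CPM in the carbon-ion controls, 4919 to 17367 after carbon ions, 10570 to 23189 in photon controls and 7779 to 14605 after photons. In the blood endothelium list 5 of 12 genes rose (median r 0.427), with Eng (0.739), Plvap (0.717) and Kdr (0.592) highest and Flt1 lowest at 0.029, and the sum ran from 341 to 1003 CPM over the 4 groups. The counts of these lists moved with the libraries used, as did the share of all genes that rose, 5.74% over the 32 tumours. It was 3.37% without the carbon-ion controls, 3.50% without the carbon-irradiated tumours, 3.61% without the photon controls, 4.40% without the photon-irradiated tumours, 4.03% among M titles and 4.14% without the 2 tumours farthest from the Lyve1 median. Over these 6 fits, in that order, the fibroblast count was 1, 1, 4, 4, 2 and 6 of 10, and the blood endothelium count 2, 5, 6, 3, 3 and 9 of 12. The count of genes common to macrophages was 3, 2, 3, 4, 3 and 4 of 12, and the lymphatic count 1, 1, 2, 1, 2 and 3 of 13. The other resident macrophage genes gave 13, 13, 14, 12, 13 and 14 of 16, or of 17 among M titles. Of the adipocyte genes that passed the filter in each fit, 2 of 4, 4 of 5, 3 of 5, 3 of 5, 5 of 7 and 5 of 7 rose.

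The adipocyte, fibroblast, blood endothelium and skeletal muscle lists and the list common to macrophages were each entered in the model as a mean log2 level. Beside each of them all 3 macrophage members still rose with Lyve1. The weakest adjusted p was 0.0348, for F13a1 beside the adipocyte list. Over the genome the number of genes that followed Lyve1 was 1641, and it went to 46 beside the adipocyte list, 115 beside the fibroblast list, 255 beside the list common to macrophages and 983 beside the blood endothelium list. Beside the adipocyte list, 0.200% of genes rose, among them 3 of the 3 macrophage members, 4 of 16 other resident macrophage genes, 0 of 4 lymphatic members and 0 of 10 fibroblast genes. Beside the fibroblast list, 0.254% rose, with 3, 5 and 0 in the first 3 of these lists. Of the 10 fibroblast genes, 0 rose beside the list common to macrophages, where 1.02% of all genes rose. The same count of 0 held beside the blood endothelium list, where 3.2% of all genes rose.

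The remaining lists gave few or no calls. Skeletal muscle, which the pieces held in amounts from 4.08 to 3806 CPM, had 0 of 10 genes rising with Lyve1 and a median r of 0.053; Tnni2 (0.192), Tnnt3 (0.166) and Pvalb (0.104) were highest and Myh1 (-0.119) lowest. No gene of the epithelial list passed (0 of 7, median r -0.169, Krt8 highest at 0.048, then Krt19 at -0.039 and Cldn4 at -0.073, with Epcam lowest at -0.481). However, 1 of the 7 fell with upper-quartile scaling, with DESeq2 and without the photon-irradiated tumours. None of the 3 tested keratinocyte genes passed (Krt10 -0.061, Krt14 -0.108 and Lor -0.334), and none of the 6 genes of the neuron and Schwann cell list did (Sox10 0.191 and Tubb3 0.169 among the higher, Mbp -0.414 lowest). Of 3 tested genes of B cells and lymph nodes, Cxcl13 rose (r = 0.758), while Cd79b (-0.001) and Cr2 (-0.093) did not pass, and Ms4a1, Cd79a, Ccl19, Madcam1 and Glycam1 were too low to be tested. Of 3 tested platelet genes Ppbp rose (0.548), while Gp1bb (0.289) and Itga2b (0.055) did not pass.

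**Figure D4:**
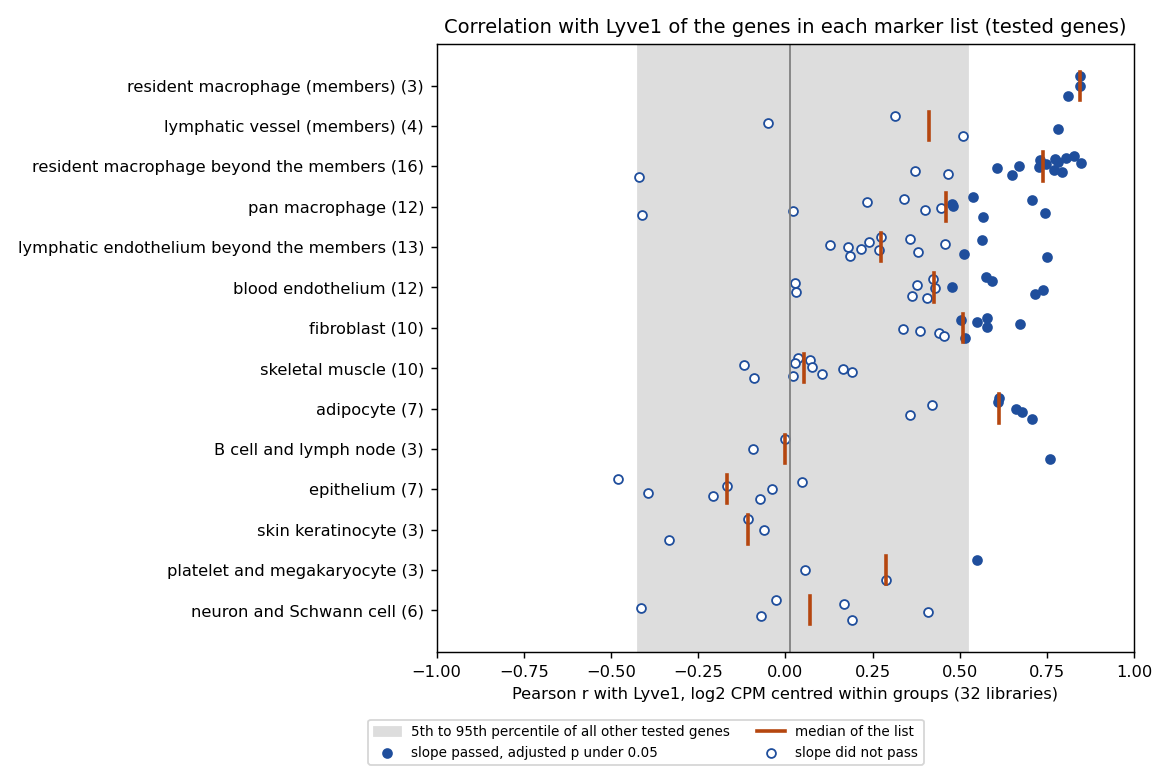
Pearson's r with Lyve1 (horizontal, log2 CPM centred within groups, 32 libraries) of each tested gene of the marker lists, with 1 point per gene, filled where the slope passed, and a bar at each list's median. Of the 16 resident macrophage genes (median 0.738), 13 lie above the band from the 5th to the 95th percentile of all genes (-0.421 to 0.523, shaded) and Igf1, Mgl2 and Selenop lie inside it, as do most lymphatic genes.

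Over the whole genome, the named genes most like Lyve1 were ranked by this r among 13315 with a mean log2 CPM of at least 0. Bend4 was first (r = 0.879), followed by Stard8 (0.857), which encodes a GTPase-activating protein, Cbr2 (0.848), Cd163 and Folr2. Next came the serine protease gene Prss23 (0.841), Emb (0.837), which encodes a partner of monocarboxylate transporters, Cmah (0.831), a sialic acid hydroxylase, Il2rg (0.827), the common gamma chain of cytokine receptors, Mrc1, Galnt16 (0.824), an O-glycosylation enzyme, and the potassium channel subunit gene Kcnab2 (0.823). Of the 12 highest, 2 are members and none is a lymphatic member. The 3 lowest were Etl4 (-0.765), Sh3d21 (-0.737) and the junction protein gene Cgnl1 (-0.737). Their slopes were all called (edgeR, adjusted p of 0.000615 or less for these 3).

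After carbon ions none of the 8 genes passed the test against the controls of that arm. The model called 0 of 20474 genes, 0% (edgeR, adjusted p under 0.05; 1177 at an unadjusted p under 0.05; DESeq2 called 17). Lyve1 differed by -0.24 on the log2 scale (SE 0.60, 95% interval -1.47 to 0.995), Cd163 by -0.22 (SE 0.54), Folr2 by 0.23 (SE 0.44), F13a1 by -0.17 (SE 0.43) and Pdpn by 0.19 (SE 0.29). Prox1 differed by -0.39 (SE 0.45), Flt4 by 0.23 (SE 0.16) and Reln by -0.61 (SE 0.66). The adjusted p was 0.996 for Flt4 and 0.997 for the other 7, and the exact permutation p over the 12870 splits of the 16 tumours (two-sided, 8 tests, mean log2 CPM) ran from 0.152 for Flt4 to 0.898 for Reln. Leaving out carbon-irradiated tumour 8 moved Lyve1 to -0.84 and leaving out carbon-ion control 5 moved it to 0.26, so its sign rests on single tumours. In the libraries with M titles alone Lyve1 differed by -0.60 (SE 0.84, adjusted p = 0.847) and Flt4 by 0.48 (SE 0.20, adjusted p = 0.509).

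After photons, the comparison for which Lyve1 was picked, the values are a description. Lyve1 stood lower by a log2 difference of -2.40 (SE 0.64), and so did Folr2 at -1.31 (SE 0.45), Cd163 at -1.29 (SE 0.55), F13a1 at -1.22 (SE 0.44) and Pdpn at -0.88 (SE 0.29). Reln was at -0.29 (SE 0.66), Prox1 at -0.04 (SE 0.46) and Flt4 at 0.03 (SE 0.16). Over all genes tested the model called 781 at an adjusted p under 0.05, or 3.81%, which is given as background only. Of the 8 irradiated tumours, 8 lay below the control median for Lyve1, Cd163, Folr2 and Pdpn, 7 for F13a1, 4 for Prox1, 3 for Flt4 and 2 for Reln. The 16 other resident macrophage genes had a median difference of -0.78 with 15 of them negative, the 13 other lymphatic genes -0.28 with 12 negative, and all genes tested -0.0006. Other lists were lower too: the median was -1.43 for the adipocyte genes (7 of 7 negative), -0.50 for fibroblasts (10 of 10), -0.44 for blood endothelium (11 of 12) and -0.36 for the genes common to macrophages (11 of 12). The muscle list had a median difference of -2.89 (10 of 10 negative), with sums of 7.48 to 1605 CPM in the controls and 4.08 to 412 CPM after photons. The part of these lists in the differences of the members was not tested.

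The ratio of Lyve1 to another gene of the same library is free of the library's scale and is given as a description. For Cd163 its log2 was -1.03 ± 0.63 (SD, n = 8) in the carbon-ion controls, -1.02 ± 0.51 after carbon ions, -0.91 ± 0.79 in the photon controls and -1.76 ± 0.87 after photons. The ratio to Prox1 was 2.07 ± 1.22, 1.95 ± 1.56, 2.66 ± 1.71 and 0.61 ± 0.89 in the same order. The ranges of the groups overlap for both ratios.

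**Figure D5:**
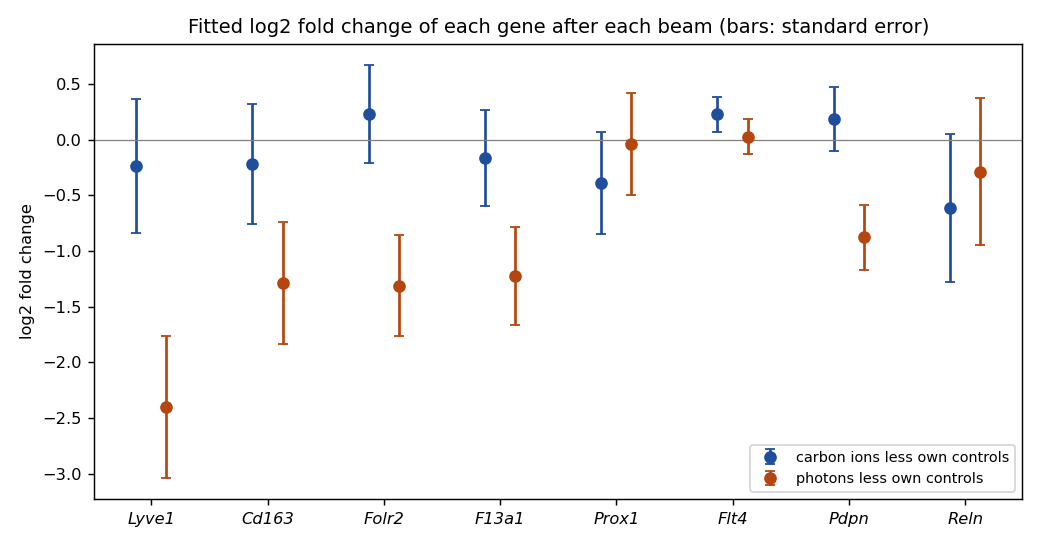
Fitted log2 fold change (vertical) of each of the 8 genes after carbon ions and after photons, each against its own 8 controls, with the standard error as a bar. The carbon-ion values lie between -0.61 and 0.23, and the photon values of Lyve1, the macrophage genes and Pdpn lie between -2.40 and -0.88.

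The difference of effects (carbon less photon) contains the photon comparison, so the values of the members are again a description. Over all genes it called 16, or 0.0781%. Lyve1 had a difference of 2.16 (SE 0.87), Folr2 of 1.54 (SE 0.63), Cd163 of 1.07 (SE 0.76), F13a1 of 1.06 (SE 0.61) and Pdpn of 1.06 (SE 0.41). Flt4 had 0.20 (SE 0.22), Reln -0.33 (SE 0.93) and Prox1 -0.35 (SE 0.65). Between the untreated tumours of both arms, 1871 genes, 9.14%, were called and none of the members. Pdpn was at -0.76 in the carbon-ion controls relative to the photon controls (SE 0.29, adjusted p = 0.0964), Flt4 at -0.39 (SE 0.16, adjusted p = 0.118) and Lyve1 at -0.68 (SE 0.60). Pdpn passed without carbon-ion control 6 (adjusted p = 0.0410) and Flt4 without carbon-ion control 1 (adjusted p = 0.0485). D titles occur in 4 of the carbon-ion controls and in none of the photon controls; among M titles alone Pdpn was at -0.49 (SE 0.36, adjusted p = 0.528) and Flt4 at -0.50 (SE 0.18, adjusted p = 0.1199).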

How the data were processed

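RNA from KPC36 tumour pieces kept in RNAlater, with an RNA integrity number above 7.0, was made into stranded mRNA libraries (Illumina kit), per the labels' protocols. Per the submitters' processing notes the tools were FastQC 0.12.0, Trimmomatic 0.32 and RSEM 1.3.3 with genome mm10. The aligner, the annotation and the strand setting are not given in the sources used here. The authors deposited a table of expected counts per gene, with fractional values, and rounding these to integers for the count models shifted no library total by more than 0.00403%. The design of the tests had been written for such counts.

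Groups came from the treatment label. Replicate numbers follow the order of deposition and pair nothing. The main tool was edgeR 4.0.16 in R 4.3.3 (filterByExpr with a minimum count of 10, TMM scaling, quasi-likelihood test, 1 model over 32 libraries), and an adjusted p (Benjamini-Hochberg over all genes tested) under 0.05 was called. CPM values use TMM library sizes, and log2 CPM a prior count of 2. The Lyve1 slope was fitted beside the 4 group means. Correlations were permuted within groups 100000 times, or exactly in a group of 8. The scripts were tested on simulated data. Alternatives were upper-quartile scaling, DESeq2 1.42.0, limma 3.58.1 (limma-trend), a looser filter, M titles alone, covariate lists and left-out libraries. The members, lists and tests were chosen with earlier results of these data known. The text names the 8 members, the 12 genes with the highest and 3 with the lowest r with Lyve1, and of each list the 3 highest and the lowest, apart from a few genes that are not reported here.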

Additional observations from a re-analysis of the deposited data

Results flagged for a closer look

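Each of the 8 genes was checked in each of the 4 groups (32 checks, log2 CPM) for a tumour far from the other 7, and 3 checks passed the 95% limit of Dixon's test for the gap relative to the group's range. Chance alone passes about 1 group in 20. Photon-irradiated tumour 5 held 50.04 CPM of F13a1, where the next highest of its group held 20.2, and 35.23 CPM of Flt4, where the next held 23.3. The same tumour had the highest Lyve1 (5.93 CPM), Cd163 (16.7 CPM) and Pdpn (26.96 CPM) of its group. Carbon-ion control 7 had 0 counts of Reln, where the next lowest held 0.68 CPM, and was also the lowest of its group for Lyve1 (1.09 CPM), Prox1 (0.362 CPM) and Pdpn (8.60 CPM).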

How the results depend on the processing

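No paired analysis was possible because the replicate numbers were given in accession order. The number of genes following Lyve1 was 1641, and 7 of 15 other settings left it within 1.5 times of that. It was 255 with the pan macrophage list as a covariate, 983 with the blood endothelium list, and, with lists chosen after seeing the data, 46 with the adipocyte and 115 with the fibroblast list. It was 889 without the 2 farthest tumours, 1028 without the carbon-ion controls, 976 without the carbon-irradiated tumours and 839 without the photon controls. With 1 library left out it ran from 866 (without carbon-irradiated tumour 8) to 1757. The number of members correlated with Lyve1 was 5 in all 6 other settings and 5 to 6 with a library left out. The carbon-ion effect called 17 genes with DESeq2 and 0 to 5 with a library left out (5 without carbon-irradiated tumour 2). The controls of the arms gave 973 genes among M titles alone and 1178 (without photon control 3) to 2196 with a library left out. Without carbon-ion control 7 they gave 1225 and without photon control 6 they gave 1241. The photon effect called 494 genes with the looser filter, 1524 with DESeq2 and 239 (without photon control 3) to 1656 (without photon control 2) with a library left out. Upper-quartile scaling turned its split of 351 higher and 430 lower genes into 566 and 394. The difference of effects called 94 genes with upper-quartile scaling, 4 with the looser filter, 1 among M titles alone, 262 with DESeq2 and 5 to 108 with a library left out (108 without photon control 2). The cause of these shifts was not tested. Among the slopes and differences of the members, none that was called reversed its direction; for other genes only counts were computed. Beside the fibroblast list the genes following Lyve1 split into 52 rising and 63 falling, against 1175 and 466. Prox1 and Reln rest on median counts of 36 and 45.5, which limits what their slopes can show.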

Other observations

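Ranked by the correlation of log2 CPM within groups over 32 libraries, as a description without a test, the named genes most like Prox1 were Mmrn1 (r = 0.852) and Reln (0.742), then Snx19 (0.630), Pik3r3 (0.580) and Epha3 (0.566). Ccl21a, whose chemokine draws dendritic cells into lymphatic vessels, had 0.867 but a mean level below the limit for that ranking. Tbx1 had 0.664 with Prox1. The same genes had 0.817 (Ccl21a), 0.773 (Mmrn1) and 0.560 (Tbx1) with Reln, and 0.068, 0.145 and 0.070 with Cd163. Of the 13 lymphatic genes outside the members, 7 had a higher r with Prox1 than with Lyve1. So did 6 of 6 genes of the neuron and Schwann cell list, 5 of 7 epithelial, 3 of 3 keratinocyte and 1 of 16 other resident macrophage genes. A higher r with Prox1 than with Lyve1 was therefore not particular to the lymphatic list.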
